A study of Homo sapiens with 9 samples.

Results

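Solute carriers (SLC) are membrane proteins that move ions, metals, amino acids, sugars and metabolites across the plasma membrane and the membranes of organelles. Genes were taken by symbol, as SLC, a number, the letter A and a number, and 32 of the 14884 named genes on the arrays matched. Of these, 17 were transporter genes and 15 were other loci that carry a transporter's name: 13 noncoding RNAs antisense to, divergent from or overlapping an SLC gene, the pseudogene SLC25A51P4, and SLC2A4RG, which encodes a DNA-binding regulator of the glucose transporter gene SLC2A4. So the label of transporters held for 17 of the 32. Expression was measured in EA.hy926, an established hybrid line of human umbilical vein endothelial cells and A549 lung carcinoma cells, with 3 arrays each for unexposed cells, cells given silver particles of 5 nm and cells given silver particles of 100 nm, both exposed groups after 6 h of exposure. Each particle was used near its LD50. The labels used here state no mass dose, so particle size and mass dose cannot be told apart.

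The platform annotation used here named a probe set (a group of probes that read 1 transcript) for 17 of the 347 protein-coding SLC genes in RefSeq, or 4.90%, against 59.4% of all protein-coding genes. The 17 are thus no random draw from the family. In 15 of them the SLC symbol is a later name, with 10 formerly listed as MFSD genes and 3 as PQLC genes. Among amino acid families (SLC1, SLC3, SLC6, SLC7, SLC38) 1 of 53 genes had a named probe set, SLC38A12. Among mitochondrial carriers (SLC25) 2 of 48 had one, SLC25A15 and SLC25A2. For zinc and copper transporters (SLC30, SLC31, SLC39) the count was 0 of 26, and for facilitative sugar transporters (SLC2) it was 0 of 14. Well-known metal, cystine and glucose carriers such as SLC30A1, SLC7A11 and SLC2A1 were therefore not analysed here, and the amino acid, metal and sugar families cannot be compared as families.

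As background, amino acid carriers set how fast a cell can renew its protein and glutathione pools, and metal carriers set the free zinc and copper that metal-binding proteins sense. The mitochondrial SLC25 family carries metabolites across the inner membrane, and SLC25A15 and SLC25A2 exchange ornithine and citrulline for the urea cycle. Many of the genes measured here belong to the major facilitator superfamily, whose substrates are partly unknown.

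All 9 arrays held log2 intensities with array medians of 5.15 to 5.64. Arrays of the same replicate number shared their scale and arrays of different numbers did not, so each difference below was taken from the control array of the same number, and SDs across a group include offsets between numbers. A gene was tested where its log2 intensity reached 5 on at least 3 of the 9 arrays, which held for 26 of the 32 members and for 12155 genes in all. The 6 members not tested, SLC25A48-AS1, SLC25A51P4, SLC39A12-AS1, SLC60A1-AS1, SLC8A1-AS1 and SLC9A9-AS1, had log2 intensities of 2.72 to 4.43 over the 9 arrays. Just inside the limit lay SLC26A4-AS1 and SLC7A11-AS1, with third-highest values of 5.37 and 5.55, and just outside it SLC60A1-AS1 and SLC25A51P4, with 4.43 and 4.17. All 9 endothelial markers with a named probe set, PECAM1, KDR and VWF among them, reached 5 on every control array, as did 70.5% of all named genes, so this check of the labelled cell type is a weak one. Of 8 epithelial markers 6 did, KRT18 and KRT8 among them, as did the leukocyte marker LYZ but not CD14, and the fibroblast markers DCN and LUM did not.

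Upstream sequences are shown for SLC61A1, SLC38A12 and SLC25A15, the 3 transporter genes with the largest negative differences in all 3 replicate numbers among those in the promoter table. Each is the 250 bases before the annotated start in RefSeq's promoter table (GRCh38.p14), on the plus strand, at chr12:53251845-53252094 for SLC61A1, chr17:74776249-74776498 for SLC38A12 and chr13:40789361-40789610 for SLC25A15. Capitals mark matches to the metal response element core, spelled TGCACNC or TGCGCNC and searched on both strands.
SLC61A1: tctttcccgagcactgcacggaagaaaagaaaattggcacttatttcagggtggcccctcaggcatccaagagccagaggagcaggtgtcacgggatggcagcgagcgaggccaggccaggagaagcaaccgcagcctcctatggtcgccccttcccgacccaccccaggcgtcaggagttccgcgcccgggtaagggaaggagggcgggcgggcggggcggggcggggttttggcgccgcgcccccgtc
SLC38A12: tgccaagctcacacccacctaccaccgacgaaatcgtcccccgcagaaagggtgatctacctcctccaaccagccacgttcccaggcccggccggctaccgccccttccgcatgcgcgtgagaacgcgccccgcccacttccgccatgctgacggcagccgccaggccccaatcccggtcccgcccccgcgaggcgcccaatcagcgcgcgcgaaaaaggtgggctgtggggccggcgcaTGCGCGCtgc
SLC25A15: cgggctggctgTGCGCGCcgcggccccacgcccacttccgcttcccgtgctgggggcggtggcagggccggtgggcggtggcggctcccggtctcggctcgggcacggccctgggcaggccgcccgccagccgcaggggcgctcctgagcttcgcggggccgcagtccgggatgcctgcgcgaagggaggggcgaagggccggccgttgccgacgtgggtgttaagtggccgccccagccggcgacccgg

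The TGCGCNC form was found at bases -10 to -4 from the start of SLC38A12 and at bases -239 to -233 of SLC25A15, and neither form was found in the SLC61A1 window. Of the 26 tested members 21 had an entry in the table, and 8 of the 21 (38.1%) held either form, against 24.7% of all 27305 upstream windows of this length. The antioxidant response element core, TGACNNNGC, was found in 4 of the 21, against 11% of all windows: SLC25A5-AS1, SLC66A1, SLC68A1 and SLC71A2. The CEBP-ATF element, TGATGNAAN, was found in 0 of the 21, against 3.18% of all windows. A match to so short a motif describes letters only, and no binding was measured.

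The first comparison was 5 nm particles against unexposed cells. No SLC member passed the test in either direction, where 0.074% of all genes passed as higher and 0% as lower (limma, Benjamini-Hochberg adjusted p under 0.05). With the replicate number as a block, again 0 of 26 members passed, against 0.296% of all genes higher and 0.354% lower, and the smallest adjusted p among members was 0.195 (limma), for SLC38A12. At an unadjusted p under 0.05, 0 members passed without the block, against 1.65% of all genes, and 3 with it, SLC38A12, SLC33A2 and SLC66A3, which is 11.5% of members against 14.3% of all genes. The groups overlapped in all 26 members, and did not in 1.88% of all genes. Differences ran from -0.35 to 0.25 on the log2 scale, that is, between 1.28-fold lower and 1.19-fold higher, in means over the 3 numbers.

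**Figure D1:**
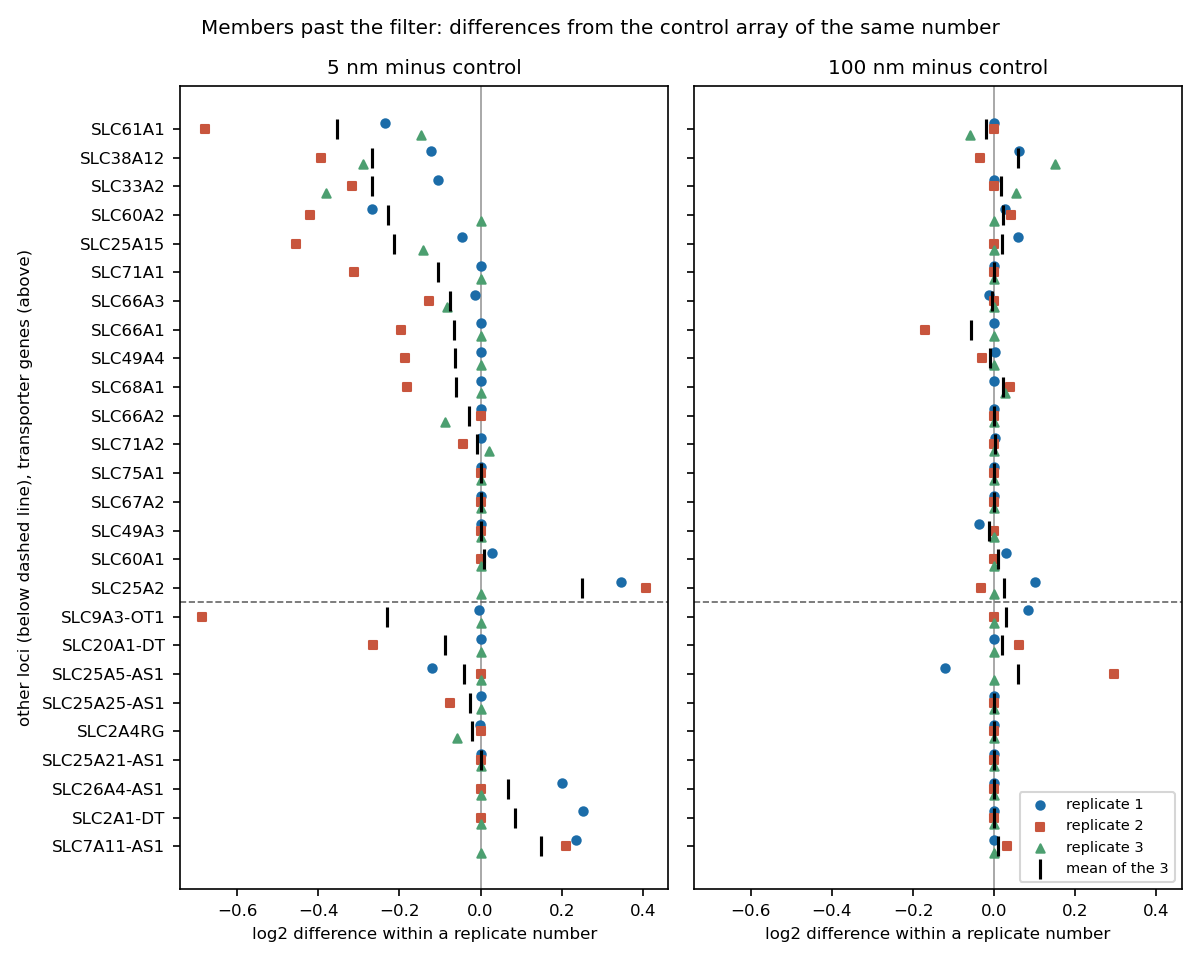
Log2 difference from the control array of the same replicate number for each of the 26 tested members, after 5 nm (left) and 100 nm (right) particles; coloured points are the 3 replicate numbers and black bars their mean. After 5 nm particles 5 transporter genes had all 3 points below 0 and no member had all 3 above, while after 100 nm particles no member had all 3 points on 1 side.

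The differences of transporter genes after 5 nm particles were small and more often negative than positive, as were those of all genes. Mean differences were negative in 12 of 17 transporter genes (70.6%) and positive in 2 (11.8%), against 45.1% and 35.9% of all genes. In 5 of 26 members (19.2%) the difference was negative in all 3 numbers, against 13.4% of all genes, and all 5 were transporter genes. A positive difference in all 3 numbers was found in 0 members, against 8.03% of all genes. In replicate 3 the difference was exactly 0 in 69.2% of members, against 55.5% of all genes. A gene at 0 in 1 number cannot enter either count, so both counts also depend on these zeros. The median of the mean differences was -0.062 over the 17 transporter genes and -0.034 over the 26 members, beside 0 over all 12155 genes. The 9 endothelial markers had a median difference of -0.15, with 3 negative in all 3 numbers, against 13.4% of all genes, and 0 passing in limma with or without the block. The 7 epithelial markers tested had a median of -0.014, with 0 passing and 2 negative in all 3 numbers, KRT7 at -0.27, -0.39 and -0.31 (adjusted p = 0.0514 with the block in limma) and KRT8 at -0.49, -0.24 and -0.16. The part of these markers in the transporter values was not tested. The cells are of 1 hybrid line, so these markers do not count separate kinds of cells. In bulk RNA, a change in some of the cells and a change in all of them cannot be told apart.

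SLC38A12, formerly TMEM104, an orphan relative of amino acid transporters, had the smallest p. Its log2 intensity was 8.998, 9.08 and 8.86 in control replicates 1, 2 and 3, 8.88, 8.68 and 8.57 with 5 nm particles, and 9.06, 9.04 and 9.005 with 100 nm particles. Every 5 nm array was below its own control, but the groups overlapped, since the highest 5 nm array lay above the lowest control array. The mean went from 8.98 ± 0.11 to 8.71 ± 0.16 (SD, n = 3 each), a log2 difference of -0.27 (95% interval -0.68 to 0.15 without the block and -0.44 to -0.091 with it). The adjusted p was 1 in limma without the block and 0.195 with it, so the difference did not pass.

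SLC33A2, formerly MFSD3, is a relative of the acetyl-CoA transporter SLC33A1. Its log2 intensity was 8.22, 7.68 and 7.99 in controls, 8.12, 7.36 and 7.61 with 5 nm particles, and 8.22, 7.68 and 8.05 with 100 nm particles, in the order of replicates 1, 2 and 3. Each 5 nm array was the lowest of its number and the groups overlapped, with replicate 1 the highest array in each group. The mean log2 difference after 5 nm particles was -0.27 (95% interval -0.46 to -0.080 with the block, adjusted p = 0.219 in limma).

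SLC61A1, formerly MFSD5, encodes a molybdate-anion transporter and had the most negative mean difference of all members. Its log2 intensity was 8.53, 7.76 and 8.20 in controls and 8.30, 7.08 and 8.05 with 5 nm particles. The within-number differences were -0.24, -0.68 and -0.15, so replicate 2 stood apart in size. Their mean was -0.35 ± 0.29 (SD, n = 3), with an interval that reached 0 with the block (-0.71 to 7.4e-05, adjusted p = 0.346 in limma).

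SLC25A15, the mitochondrial ornithine carrier, had log2 intensities of 7.75, 7.11 and 7.003 in controls and 7.71, 6.65 and 6.86 with 5 nm particles. Replicate 2 again gave the most negative difference, -0.46, beside -0.047 and -0.14 in replicates 1 and 3. Its close copy SLC25A2, the second ornithine carrier, differed the other way, from 5.76, 5.60 and 5.64 in controls to 6.10, 6.01 and 5.64 with 5 nm particles. The difference was 0.35 and 0.41 in replicates 1 and 2 and exactly 0 in replicate 3, with a mean of 0.25 (95% interval -0.016 to 0.52 with the block, adjusted p = 0.346 in limma). Both SLC25A2 and SLC25A15 missed the threshold (adjusted p = 0.355 with the block for SLC25A15), and since their sequences are alike, how far each probe set reads the other copy was not tested.

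**Figure D2:**
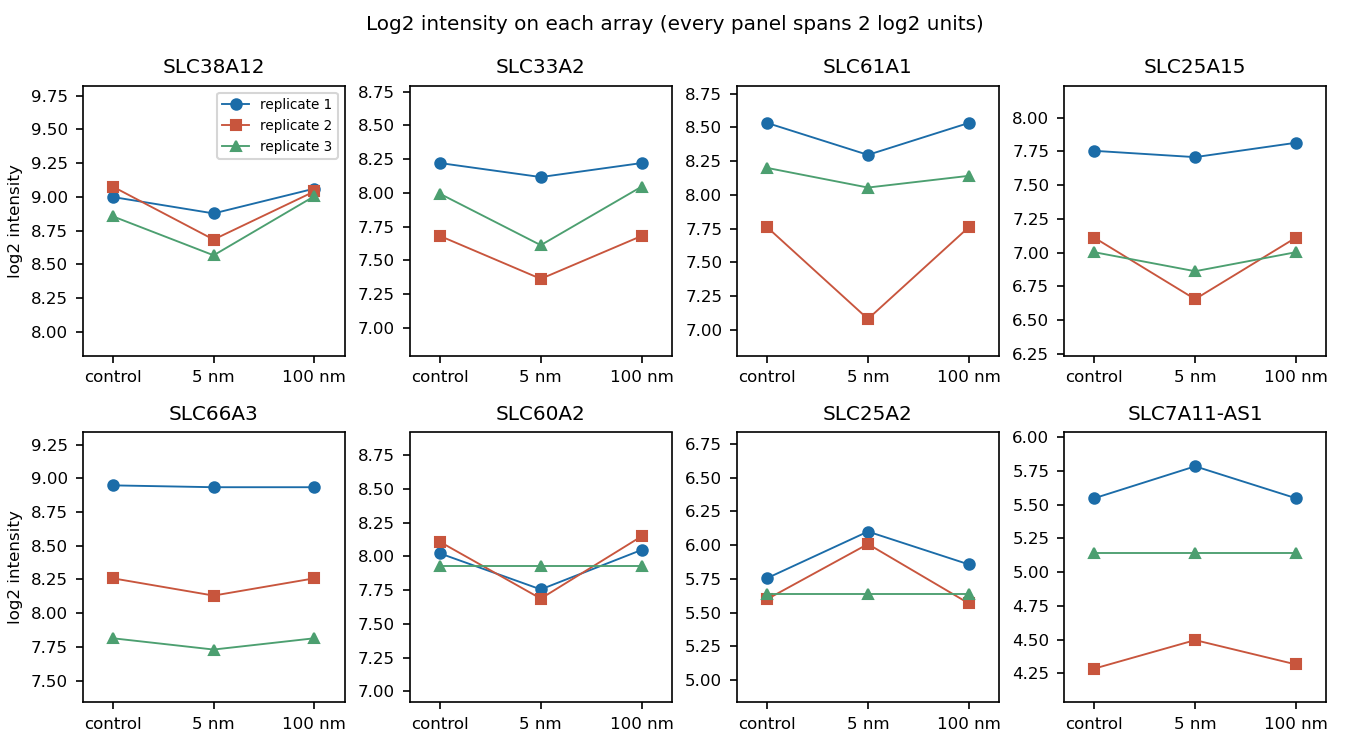
Log2 intensity on each of the 9 arrays for 8 members, with lines joining arrays of 1 replicate number across control, 5 nm and 100 nm; every panel spans 2 log2 units at its own level. SLC38A12, SLC33A2, SLC61A1 and SLC25A15 are lowest on the 5 nm array in every number, and SLC60A2, SLC25A2 and SLC7A11-AS1 are flat in replicate 3.

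SLC66A3, a PQ-loop protein, was the fifth member with 3 negative differences, of -0.014, -0.13 and -0.084. Its relatives SLC66A1, the lysosomal exporter of cationic amino acids, and SLC66A2 did not do so, with differences of 0, -0.20 and 0 for SLC66A1 and 0, 0 and -0.087 for SLC66A2. SLC60A2, a sodium-dependent glucose transporter of the major facilitator type and the measured member closest in substrate to the sugar carriers, differed by -0.27 and -0.42 in replicates 1 and 2 and by 0 in replicate 3. Its mean was 8.02 ± 0.089 in controls and 7.79 ± 0.13 with 5 nm particles (SD, n = 3 each; adjusted p = 0.359 with the block in limma). SLC60A1, its paralog, differed by 0.029, 0 and 0.

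The other transporter genes had a difference in 1 number or in none, apart from SLC71A2, with -0.044 in replicate 2 and 0.020 in replicate 3. SLC71A1, its paralog and likewise a major facilitator protein, differed by -0.31 in replicate 2 and by 0 elsewhere. SLC49A4, a lysosomal membrane protein, and SLC68A1 had the same form, with -0.19 and -0.18 in replicate 2. SLC49A3, SLC67A2 and SLC75A1 were exactly 0 in all 3 numbers. Such zeros were found in 4 of 26 members (15.4%), SLC25A21-AS1 being the fourth, against 19% of all genes. They are common in these values, and the processing that could leave them was not tested, so a small difference may be hidden in them.

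The largest number of negative values fell in replicate 2. In it 11 of 17 transporter genes (64.7%) were negative, against 34.5% of all genes, while in replicates 1 and 3 the share was 35.3% in each, against 31.7% and 25.7% of all genes. The median difference of the 17 was -0.18 in replicate 2 and 0 in the other two numbers. Without replicate 2 the median of the mean differences was 0.

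**Figure D3:**
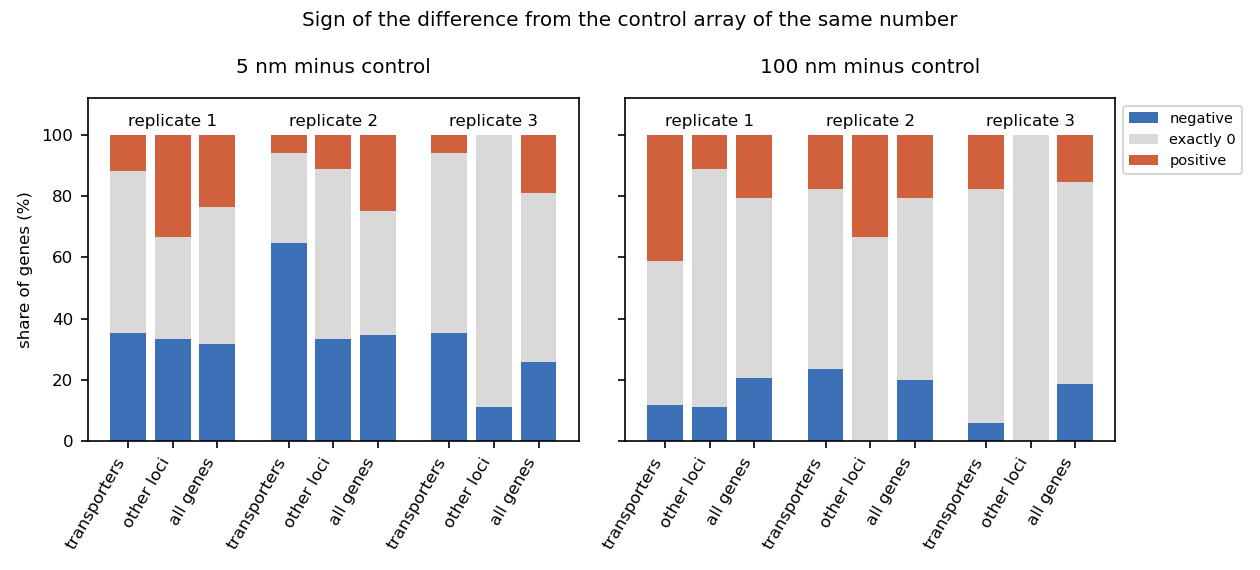
Share of genes in percent whose difference from the control array of the same number was negative, exactly 0 or positive, for the 17 transporter genes, the 9 other loci and all 12155 genes, in each replicate number. The blue share of transporter genes after 5 nm particles in replicate 2 is 64.7%, beside 34.5% of all genes.

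Of the 9 other loci tested, 3 had positive and 5 had negative mean differences after 5 nm particles. SLC7A11-AS1, antisense to the gene of the cystine importer SLC7A11, had log2 intensities of 5.55, 4.29 and 5.14 in controls and 5.78, 4.50 and 5.14 with 5 nm particles. It was higher by 0.24 and 0.21 in replicates 1 and 2 and by 0 in replicate 3, and replicate 2 lay under the limit of 5 in both groups. With the block its adjusted p was 0.346, and without the 5 nm array of replicate 3 it was 0.0268 (limma), at a log2 difference of 0.22. In that setting 1.46% of all genes passed as higher and 2.2% as lower, so 1 of 26 members (3.85%) is near the background. In no other setting run did a member pass. Over its 26 alternative settings the adjusted p ranged from 0.0268 to 1. Against 100 nm particles the same setting gave 0.0281 (limma), at a difference of 0.21, where 1.51% of all genes passed as higher and 2.18% as lower.

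SLC2A1-DT, divergent from the gene of the glucose carrier SLC2A1, and SLC26A4-AS1 differed by 0.25 and 0.20 in replicate 1 and by 0 elsewhere. SLC9A3-OT1, which overlaps a sodium-proton exchanger gene, differed by -0.69 in replicate 2, -0.0028 in replicate 1 and 0 in replicate 3. SLC20A1-DT differed by -0.27 in replicate 2, SLC25A25-AS1 by -0.076 in replicate 2 and SLC25A5-AS1 by -0.12 in replicate 1, each with 0 in the other numbers. SLC2A4RG differed by -0.0023, 0 and -0.058. The noncoding RNAs share loci with transporter genes that were not analysed here, and SLC2A4RG encodes a regulator. The values therefore say nothing of the transporters themselves.

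The second comparison was 100 nm particles against unexposed cells. No member passed, with or without the block, and neither did any other gene (0% higher and 0% lower in limma, Benjamini-Hochberg). At an unadjusted p under 0.05, 0 members passed in either fit, beside 0% of all genes without the block and 0.271% with it. Mean differences ran from -0.057 for SLC66A1 to 0.059 for SLC38A12, whose values within numbers were 0.062, -0.035 and 0.15. The groups overlapped in all 26 members, and did not in 0.0329% of all genes. No member had 1 sign in all 3 numbers, against 1.25% of all genes positive and 1.41% negative. The 9 members that were exactly 0 in all 3 numbers made up 34.6%, against 30.3% of all genes. SLC25A5-AS1 was divided, at -0.12, 0.30 and 0. The 95% interval with the block was widest for SLC9A3-OT1, at -0.43 to 0.49, and among transporter genes for SLC61A1, at -0.37 to 0.33.

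The third comparison set 5 nm against 100 nm particles. Again 0 members passed, against 0.0658% of all genes higher and 0% lower without the block and 0.288% and 0.329% with it (limma, Benjamini-Hochberg). At an unadjusted p under 0.05, 0 members passed without the block, against 1.7% of all genes, and 2 with it, SLC38A12 and SLC33A2, or 7.69% against 14.3% of all genes. SLC38A12 differed by -0.18, -0.36 and -0.44 and SLC33A2 by -0.10, -0.32 and -0.43 in replicates 1, 2 and 3. SLC61A1 and SLC25A15 were also negative in all 3 numbers, which made 4 members (15.4%), against 13% of all genes, and 0 members were positive in all 3, against 8.04%. In SLC38A12, 1 of 26 members (3.85%), the groups did not overlap, against 1.82% of all genes, with 5 nm arrays at 8.57 to 8.88 and 100 nm arrays at 9.005 to 9.06. The smallest adjusted p among members with the block was 0.141 (limma). This comparison shares the 5 nm arrays with the first, so its values are no separate evidence.

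Genes that work beside these transporters were read from lists of metal handling, amino acid response, glutathione, glycolysis and mitochondrial carrier genes. The lists were chosen with earlier results of these data known, so their counts beside the shares of all genes are no separate evidence. In the metal handling list 1 of 11 tested genes passed after 5 nm particles, MT1G, a metallothionein, against 0.074% of all genes. MT1G was higher by 5.69, 6.20 and 4.43 (adjusted p = 0.00069 without the block and 0.0285 with it in limma). Its mean log2 intensity was 4.72 in controls and 4.90 with 100 nm particles, both under the limit of 5, and 10.2 with 5 nm particles. The size of its difference thus starts from control values near background. The list's median difference was -0.015, with 5 genes positive in all 3 numbers, against 8.03% of all genes, and 2 negative, against 13.4%. The metallothionein MT1E differed by 1.76, 2.35 and 1.44, MT1X by 0.92, 1.05 and 1.47 and MT1F by 0.38, 0.78 and 0.75, none of them passing (adjusted p = 0.0501, 0.0509 and 0.083 with the block in limma). The metallothionein MT2A differed by -0.075, -0.17 and -0.14. MTF1, the zinc-sensing factor that drives metallothionein genes, differed by 0.13, 0.37 and 0.18 without passing (adjusted p = 0.262 with the block in limma), and COMMD1, a copper-handling protein, by -0.029, -0.085 and -0.19. In the amino acid response list 0 of 12 passed, 8 were positive in all 3 numbers, against 8.03% of all genes, and the median was 0.48. Among them ASNS, asparagine synthetase, differed by 0.42, 1.26 and 0.23, and CTH, which makes cysteine, by 0.75, 1.55 and 0.47. The largest mean difference of the list was that of DDIT3, at 2.63, 4.09 and 1.76. Not positive in all 3 numbers were CBS, at 0, 0.15 and 0.16, and PHGDH, at 0, 0.18 and -0.12. The same held for PSAT1, at 0.0006, 0.14 and 0, and ATF5, at 0, -0.67 and 0. In the list of cystine and glutathione use 1 of 8 passed without the block, HMOX1, against 0.074% of all genes higher. With the block 3 passed, HMOX1, TXNRD1 and GSR, against 0.296%. When the block fit held only the groups compared, 0 of all genes passed in either direction. HMOX1 breaks down heme, TXNRD1 reduces thioredoxin and GSR reduces oxidised glutathione. The median of this list was 0.62, with 5 genes positive in all 3 numbers, against 8.03% of all genes, and 1 negative, against 13.4%. HMOX1, 1 of the 5, differed by 3.58, 4.06 and 3.18. GSS, glutathione synthetase and the negative gene, differed by -0.070, -0.047 and -0.12. In glycolysis 0 of 9 passed and the median was 0.0057, with 2 genes positive in all 3 numbers, against 8.03% of all genes, and 1 negative, against 13.4%. HK2, a hexokinase and 1 of the 2 positive genes, differed by 0.16, 0.75 and 0.18, and LDHA, the negative gene, by -0.14, -0.31 and -0.028.

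Of mitochondrial carriers and channels without an SLC symbol, 0 of 11 passed, 5 were negative in all 3 numbers, against 13.4% of all genes, 1 was positive in all 3, against 8.03%, and the median was -0.10. The positive gene was MTCH1, an outer membrane protein, at 0.17, 0.33 and 0.0088. SFXN1, the mitochondrial serine carrier, differed by -0.14, -0.32 and -0.13, and SFXN4 by -0.35, -0.24 and -0.10. VDAC1, an outer membrane channel, was exactly 0 in all 3 numbers. These lists are described by their counts and were given no test of their own.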

How the data were processed

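Log2 intensities for 53617 probe sets were deposited; per the submitters' processing notes, RMA and version 1.3.1 of Affymetrix Expression Console were used, and a genome build was not named. A platform table named 16098 probe sets with 1 gene symbol, 0 with several and left 37519 (70.0%) unnamed. Symbols were updated by Entrez identifier, with 16098 matched. The probe set with the highest mean stood for a gene; all 32 members had 1.

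Groups came from the sample titles. Limma 3.58.1 in R 4.3.3 fitted group means to all 9 arrays, with Benjamini-Hochberg adjustment over 12155 genes. Each gene's spread was pooled over the 9 arrays, 3 per group, and moderated across genes by limma. The fit was tested on simulated data with larger differences than those of the members and without identical values. That run therefore does not cover differences as small as those of the members. Nothing in the labels says that replicates were separate cultures, so p-values measure the spread between these arrays. Replicate numbers pair the arrays: deviations from group means correlated at r = 0.762 to 0.967 across genes within a number (9 pairs) and -0.582 to -0.265 between numbers (18 pairs). In 41.2% to 43.9% of probe sets the 3 arrays of a number held 1 identical value.

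Alternatives were the replicate block, other scalings, filters, probe set rules and left-out arrays. The members and lists were chosen with earlier results of these data known. Of 40 SLC genes fixed for naming, 0 had a named probe set; others named by rule were the 3 largest same-sign differences per family and those nearest the filter limit, and all other members were named after their values were seen.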

Additional observations from a re-analysis of the deposited data

How the results depend on the processing

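The count of SLC members past the threshold was 0 in each of the 3 comparisons, and it stayed 0 with the replicate block (smallest adjusted p = 0.195 for 5 nm minus control, 0.141 for 5 nm minus 100 nm and 1 for 100 nm minus control, limma), under both other scalings, both other filters, the mean over probe sets, the intensity trend and both fits to only the groups compared. Leaving out 1 array gave counts of 0 to 1 for 5 nm minus control and for 5 nm minus 100 nm: the 1 was SLC7A11-AS1 in the block fit without the 5 nm array of replicate 3. That setting called 178 genes higher and 268 lower for 5 nm minus control and 184 and 265 for 5 nm minus 100 nm; with the block, leaving out 1 array gave 2 to 446 and 7 to 449 genes in all. For 100 nm minus control the count was 0 throughout. Over all genes 9 passed for 5 nm minus control, 4 with arrays shifted to 1 median, 19 with quantile normalization, 15 with a limit of 6, 6 with no filter and 6 to 15 without 1 array; with the block 36 were higher and 43 lower, and 0 of either when only the groups compared were fitted. The median difference of all members after 5 nm particles was -0.034, and -0.049 to 0 without 1 replicate number. In alternatives chosen after seeing the data, the transporter genes' median of -0.062 ranged from -0.094 to 0 without 1 number, and for the 9 other loci the median of -0.020 became -0.038 with arrays shifted to 1 median, -0.019 with quantile normalization, 0 with no filter, -0.033 with a limit of 6 and -0.0012 to 0 without 1 number. For the 5 loci with an SLC25 symbol the median of -0.025 became -0.043, -0.019, 0 and -0.033 in the same order, and -0.038 to 0 without 1 number. In fits without the block, leaving out 1 array moves the offsets between numbers into the difference: SLC66A3, at -0.075 after 5 nm particles, then ranged from -0.41 to 0.23. Medians of the amino acid, sugar and metal families were not run, since each had under 3 tested members.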
